A study of Mus musculus with 9 samples.

Results

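Transcript levels of 9 adhesion genes were followed in thymic invariant natural killer T (iNKT) cells: the integrin alpha subunit genes Itgal, Itgae, Itga1, Itga4 and Itga6, the beta subunit genes Itgb1, Itgb2 and Itgb7, and Cd44. They were chosen by gene symbol from integrins of T cells and natural killer cells, together with a marker used to sort the cells. Earlier results of these data were known when they were chosen. They made up 9 of the 21883 rows of the expression table. RNA sequencing of total RNA was available for 3 groups of 3 libraries each, all from the thymus of C57BL/6 mice. The WT stage 2 and WT stage 3 groups came from wild-type mice that were 6 weeks old. The Med23-deficient stage 2 group came from mice in which Cd4-Cre removes the Mediator subunit gene Med23 in T-lineage cells, so it lacks the gene in conventional T cells of the same thymus as well, and the labels give no age for it. Both stages are sorted as CD24-low, CD44-high iNKT cells and are separated by NK1.1, which is low at stage 2 and high at stage 3. No Med23-deficient stage 3 group was analysed here. Med23-deficient stage 2 and WT stage 3 therefore differ in both genotype and stage, which cannot be told apart in that comparison. The sample records of the Med23-deficient libraries were numbered apart from those of the WT libraries. Whether they were also prepared or sequenced apart is not given in the labels used here. Any such difference could not be told apart from genotype in either comparison with WT cells. The labels do not say whether the 3 libraries of a group come from separate animals or whether animals were pooled, so p-values measure the spread between these libraries, which may be technical.

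Integrins are heterodimers of an alpha and a beta chain that reach the cell surface only as a pair. Itgal pairs with Itgb2 to form LFA-1, the receptor for the ICAM ligands that T cells use to stop on endothelium and to bind antigen-presenting cells. Itgae pairs with Itgb7 to bind E-cadherin on epithelium, Itga4 pairs with Itgb7 or Itgb1 to bind MAdCAM-1, VCAM-1 or fibronectin, and Itga1 and Itga6 pair with Itgb1 to bind collagen and laminin. CD44 is the main receptor for hyaluronan and is held high on memory-type T cells. In the thymus and in tissues, the integrin set of a T cell shapes where the cell can adhere, and the collagen receptor and the E-cadherin receptor are known from T cells that reside in tissues.

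Levels are given as FPKM, fragments scaled to the exon length of the gene and to the number mapped in the library, which can be compared between genes. Changes are log2 fold changes of FPKM + 1, a scale that understates the change of genes with low levels. A gene was called by the thresholds that the study used, a fold change of at least 2 with a p-value of at most 0.05, and separately by a p-value from limma of at most 0.05 after Benjamini-Hochberg adjustment across the whole table tested, called the adjusted p. "Rose" and "fell" are used for the adjusted threshold. A change in a sorted population can come from fewer cells of a type or from less RNA per cell, and these cannot be told apart in bulk libraries.

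The labels were checked first. Klrb1c, which encodes NK1.1, was at 16.3, 26.2 and 7.65 FPKM in WT stage 2, at 95.1, 57.3 and 72.7 in WT stage 3, and at 4.60, 2.61 and 3.04 in Med23-deficient stage 2. Every stage 3 library lay above every stage 2 library, as the gates are drawn, and Med23-deficient cells had the lowest values. Cd24a did not exceed 0.72 FPKM in any library. Med23 itself was at 5.51, 5.15 and 6.74 FPKM in WT stage 2, compared with 4.80, 3.60 and 3.92 in Med23-deficient stage 2, without overlap but with an adjusted p of 0.552 in limma. A gene-level value does not show which exons were read, so it does not resolve the deleted part. The summed level of 6 genes of double-positive thymocytes lay between 0.95 and 4.99 FPKM over all libraries, and the 2 B cell genes and 2 myeloid genes in the table summed to at most 0.50 and 1.24.

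Among alpha subunits, Itga1 separated the stages most, and the beta subunit it pairs with, Itgb1, was also higher at stage 3. Itga4 and Itgb1 were both lower in Med23-deficient cells than in either WT group. For these 3 genes, the 250 bases before the annotated start in the RefSeq table (mouse GRCm38.p6, the mm10 assembly) are shown. They are the members called in a comparison that had such a window, and their patterns over the groups differed. Itga4 lies on the plus strand (window chr2:79255176-79255425), Itgb1 on the plus strand (chr8:128685404-128685653) and Itga1 on the minus strand (chr13:115101965-115102214). Each is written 5′ to 3′ along the gene, and capitals mark the matches to the searched motifs.
Itga4: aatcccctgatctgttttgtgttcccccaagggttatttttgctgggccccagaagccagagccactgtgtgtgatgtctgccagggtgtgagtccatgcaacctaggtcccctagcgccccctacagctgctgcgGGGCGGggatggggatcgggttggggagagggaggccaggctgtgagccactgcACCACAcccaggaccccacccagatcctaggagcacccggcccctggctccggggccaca
Itgb1: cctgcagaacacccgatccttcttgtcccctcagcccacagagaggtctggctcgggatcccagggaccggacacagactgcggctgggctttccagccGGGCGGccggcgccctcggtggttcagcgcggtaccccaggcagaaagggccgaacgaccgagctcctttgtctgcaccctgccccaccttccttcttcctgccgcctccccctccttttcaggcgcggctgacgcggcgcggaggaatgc
Itga1: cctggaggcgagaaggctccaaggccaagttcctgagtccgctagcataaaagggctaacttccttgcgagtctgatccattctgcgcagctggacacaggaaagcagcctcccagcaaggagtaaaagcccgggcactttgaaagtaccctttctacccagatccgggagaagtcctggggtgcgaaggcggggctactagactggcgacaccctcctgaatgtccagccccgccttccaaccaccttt
The motifs were Runx (TGTGGT), AP-1 (TGANTCA), T-box (TCACACCT), ETS (CCGGAAGT), Sp1 (GGGCGG) and the TATA box (TATAAA), each searched on both strands. In Itga4, an Sp1 match began 114 bases before the start on the plus strand of the gene and a Runx match, read on the opposite strand as ACCACA, began 60 bases before it, and the matches did not overlap. Itgb1 held 1 Sp1 match, 151 bases before the start, and the Itga1 window held no match to the 6 motifs. Sp1 letters occur in 32.7% and Runx letters in 14.0% of the 32851 promoter windows of the table, and the TATA box in 12.4%, AP-1 in 6.75%, ETS in 2.88% and T-box in 1.12%. A match describes the letters only. The GC content of these windows was 64% for Itga4, 68% for Itgb1 and 57.6% for Itga1, against a median of 52.4% over all windows. Of the 9 members, 5 had a window in the table. Those of Cd44 and Itgb7 held no match to these motifs.

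LFA-1 genes were the most abundant members in every group. Itgb2 (ENSMUSG00000000290, chromosome 10, plus strand) was at 168, 190 and 201 FPKM in WT stage 2, at 230, 203 and 206 in WT stage 3 and at 238, 270 and 248 in Med23-deficient stage 2. The Med23-deficient libraries were above all 6 WT libraries, and WT stage 3 was just above WT stage 2. Itgal (ENSMUSG00000030830, chromosome 7, plus strand) was at 102, 105 and 103 FPKM in WT stage 2, at 91.4, 97.8 and 90.5 in WT stage 3 and at 120, 115 and 99.9 in Med23-deficient stage 2. WT stage 3 was below both other groups without overlap, at 0.902 times the mean of WT stage 2 and 0.835 times that of Med23-deficient stage 2, while the Med23-deficient and WT stage 2 ranges overlapped. Neither gene was called in any comparison. For Itgb2 the log2 fold change was 0.43 (SE 0.10, limma adjusted p = 0.218) between Med23-deficient and WT stage 2, and for Itgal it was -0.15 (SE 0.07, adjusted p = 0.456) between WT stage 3 and WT stage 2.

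The E-cadherin receptor showed a different pattern in its 2 chains. Itgae (ENSMUSG00000005947, CD103, chromosome 11, plus strand) was at 36.3, 63.6 and 40.4 FPKM in WT stage 2, at 67.4, 85.4 and 83.0 in WT stage 3 and at 4.93, 7.63 and 9.49 in Med23-deficient stage 2. All 3 groups were apart, with the Med23-deficient libraries far below and the second WT stage 2 library close to the lowest stage 3 library. Itgb7 (ENSMUSG00000001281, chromosome 15, minus strand) was at 61.9, 66.4 and 69.1 FPKM in WT stage 2, at 62.9, 60.2 and 61.7 in WT stage 3 and at 73.4, 82.5 and 74.2 in Med23-deficient stage 2. The chain that Itgae needs was therefore measured at its highest in the libraries where Itgae was at its lowest.

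Against WT stage 3, Itgae fell in Med23-deficient stage 2 cells by 3.28 on the log2 scale (SE 0.23, limma adjusted p = 0.00501), from a mean of 78.6 to 7.35 FPKM, which is 10.7-fold, and the adjusted p stayed between 0.00781 and 0.0376 with 1 library left out. Against WT stage 2 its log2 fold change was -2.51 (SE 0.29, 6.36-fold in mean FPKM), past the fold and p thresholds, with an adjusted p of 0.0511. Between WT stage 3 and WT stage 2 it was 0.77 (SE 0.23, adjusted p = 0.204), higher in every stage 3 library but past neither threshold. Without the second WT stage 2 library that value was 1.01 and passed the fold and p thresholds. Itgb7 passed no threshold, with log2 fold changes of 0.31 (SE 0.08, adjusted p = 0.184) against WT stage 3 and 0.22 (SE 0.08, adjusted p = 0.489) against WT stage 2.

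The collagen receptor gene Itga1 (ENSMUSG00000042284, CD49a, chromosome 13, minus strand) was at 2.37, 3.90 and 2.73 FPKM in WT stage 2, at 33.1, 32.6 and 36.8 in WT stage 3 and at 6.58, 2.87 and 8.36 in Med23-deficient stage 2. The stage 3 libraries stood well apart from the other 6, and the Med23-deficient libraries spread from within the WT stage 2 range to above it. Itga1 rose from WT stage 2 to WT stage 3 by a log2 fold change of 3.15 (SE 0.17, limma adjusted p = 0.00368), 11.4-fold in mean FPKM, and this held with any 1 library left out (adjusted p from 0.0136 to 0.0322). It was lower in Med23-deficient stage 2 than in WT stage 3, with a log2 fold change of -2.43 (SE 0.33, adjusted p = 0.0312), a call that held without the second or the third Med23-deficient library and was lost without the first or any 1 WT stage 3 library (adjusted p up to 0.128). The difference from WT stage 2 was 0.72 (SE 0.37, 95% confidence interval -0.19 to 1.63, adjusted p = 0.622). Without the second Med23-deficient library this became 1.09 and passed the fold and p thresholds, with an adjusted p of 0.34. Pelo, a translation rescue factor gene inside an Itga1 intron on the same strand with no exon base in common, lay between 1.98 and 6.36 FPKM in WT stage 2, between 11.9 and 14.7 in WT stage 3 and between 2.39 and 8.34 in Med23-deficient stage 2. It moved with its host gene, and whether reads were shared between them was not tested.

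Itgb1 (ENSMUSG00000025809, CD29, chromosome 8, plus strand) had an ordered pattern over the groups. Its levels were 29.7, 25.3 and 22.5 FPKM in WT stage 2, 56.0, 48.7 and 46.7 in WT stage 3 and 14.1, 12.4 and 15.4 in Med23-deficient stage 2, with no overlap between any 2 groups. It rose from WT stage 2 to WT stage 3 by 0.94 (SE 0.13, limma adjusted p = 0.0346), a fold change in mean FPKM of 1.95, which the adjusted p threshold called and the fold threshold of 2 did not. That call was lost when any 1 of the 6 libraries was left out, with adjusted p-values from 0.0514 to 0.112 and a log2 fold change of at least 0.85. In Med23-deficient stage 2 cells it fell by 1.78 against WT stage 3 (SE 0.12, adjusted p = 0.00408, 3.61-fold in mean FPKM), and from 0.0204 to 0.0358 in adjusted p with 1 library left out. Against WT stage 2 it was lower by 1.85-fold, with a log2 fold change of -0.84 (SE 0.14, adjusted p = 0.105).

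Itga4 (ENSMUSG00000027009, CD49d, chromosome 2, plus strand) was a low gene in WT cells and lower still in Med23-deficient cells. It was at 6.50, 3.59 and 5.66 FPKM in WT stage 2, at 5.82, 5.58 and 4.92 in WT stage 3 and at 0.46, 0.57 and 0.44 in Med23-deficient stage 2. The WT stages overlapped fully, and the Med23-deficient libraries were all below every WT library. Itga4 fell by 2.11 against WT stage 3 (SE 0.20, limma adjusted p = 0.0129, 11.1-fold in mean FPKM), a call lost without any 1 of the WT stage 3 libraries (adjusted p up to 0.0671). Against WT stage 2 the log2 fold change was -2.04 (SE 0.28, 10.7-fold in mean FPKM), past the fold and p thresholds, with an adjusted p of 0.0701. Between the WT stages it was 0.07 (SE 0.22, 95% confidence interval -0.48 to 0.62, adjusted p = 0.909), and its sign changed with the scaling and without the second WT stage 2 library. Cerkl, on the opposite strand with 1124 exon bases in common, did not exceed 0.49 FPKM in any library. The strand setting of the counting is not given in the sources used here.

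Itga6 (ENSMUSG00000027111, CD49f, chromosome 2, plus strand) was at 6.22, 5.41 and 4.73 FPKM in WT stage 2, at 4.79, 3.94 and 4.24 in WT stage 3 and at 3.22, 3.15 and 2.41 in Med23-deficient stage 2. The Med23-deficient libraries were lowest and apart from both WT groups, while the WT stages overlapped. No threshold was passed, with log2 fold changes of -0.72 against WT stage 2 (SE 0.20, limma adjusted p = 0.295) and -0.44 against WT stage 3 (SE 0.18, adjusted p = 0.503). Cd44 (ENSMUSG00000005087, chromosome 2, minus strand) was at 33.7, 45.8 and 35.3 FPKM in WT stage 2, at 48.5, 47.7 and 49.1 in WT stage 3 and at 40.6, 41.6 and 48.1 in Med23-deficient stage 2. Its protein was held high by the gate in all groups, and its transcript differed little. Stage 3 lay above WT stage 2 without overlap, by 0.35 on the log2 scale (SE 0.13, adjusted p = 0.319), and Med23-deficient cells overlapped both WT groups.

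**Figure D1:**
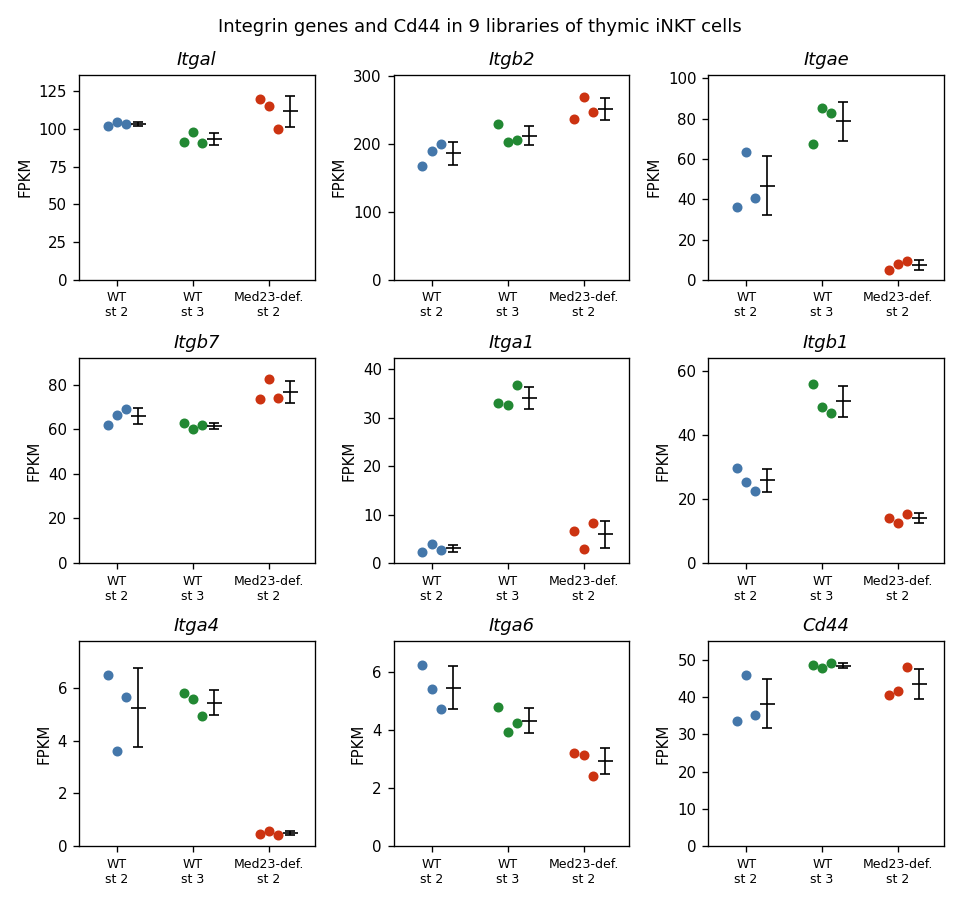
FPKM (vertical axes, linear from 0) of the 9 genes in each library of WT stage 2 (blue), WT stage 3 (green) and Med23-deficient stage 2 (red) cells, with the mean and SD of 3 libraries as a black bar beside each group. Itga1 is high only in the 3 stage 3 libraries (32.6 to 36.8 FPKM), Itga4 and Itgae are lowest in the 3 Med23-deficient libraries, and Itgal lies between 90.5 and 120 FPKM in all 9 libraries.

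The members were chosen with earlier results of these data known, so their counts beside the shares of all genes are a description. Counted together, 1 of the 9 members met the fold and p thresholds between WT stage 3 and WT stage 2, where 3.60% of the 20689 genes tested did. The adjusted p was passed by 2 members, where 1.67% of genes did. Ranges did not overlap for 6 members, against 17.8% of all genes. Shares over all genes include genes near 0. Genes averaging at least 1 FPKM numbered 11781, and a fit on these alone called 698 by fold and p and 496 by the adjusted p. The median log2 fold change of the members was 0.19, with 6 higher and 3 lower, beside -0.01 over all genes tested.

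Between Med23-deficient and WT stage 2, 2 members passed the fold and p thresholds, both lower (2.11% of 20674 genes), and none passed the adjusted p in limma (0.213% of genes), with 6 at an unadjusted p of at most 0.05 (9.58% of genes). Other forms of the fit called from 0 to 3 members there. A fit on the 11750 genes averaging at least 1 FPKM called 427 genes by fold and p and 143 by the adjusted p. Ranges did not overlap for 6 members, against 14.0% of all genes, and the members' median was 0.11 beside -0.01. Between Med23-deficient stage 2 and WT stage 3, which differ in genotype and in stage, 4 members passed both thresholds, all lower. Over 20846 genes, 2.86% passed fold and p and 1.33% the adjusted p. A fit on the 11733 genes averaging at least 1 FPKM called 559 and 349 genes in that order. Ranges did not overlap for 8 members, against 14.2% of genes, and the median was -0.44 beside 0.003. The 3 comparisons use the same 9 libraries, each group in 2 of them, so their values are not independent.

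**Figure D2:**
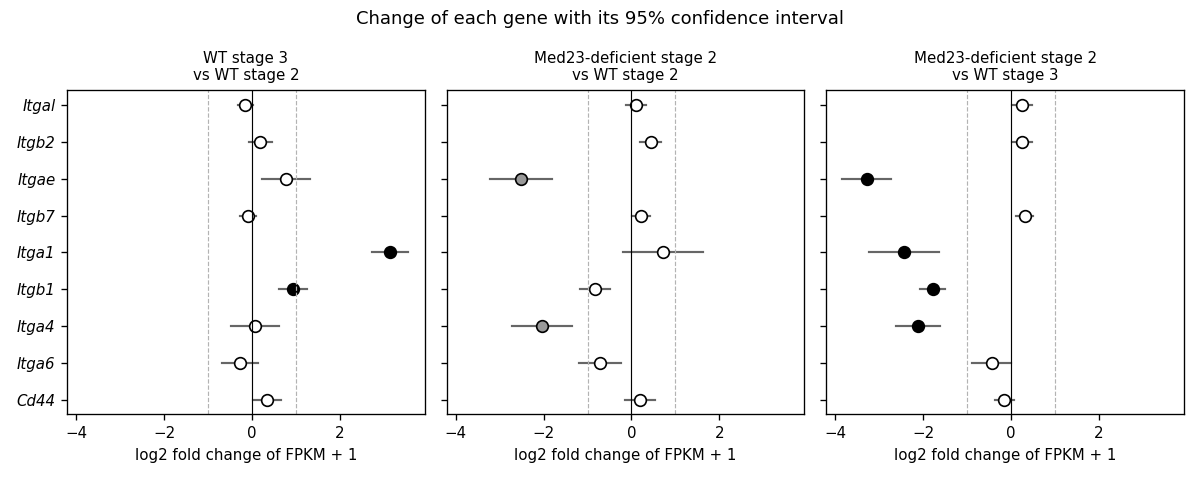
Log2 fold change of FPKM + 1 (horizontal axis) of each gene in the 3 comparisons, with the 95% confidence interval from limma as a line. Black points passed the adjusted p, grey points only the fold and p thresholds, and open points neither, and dashed lines mark a fold change of 2. Itgae, Itgb1, Itga4 and Itga1 are black and left of the line at 0 in the comparison of Med23-deficient stage 2 with WT stage 3.

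Because an alpha chain needs its beta partner, the ratio of the FPKM of the 2 genes was taken within each library, which also removes any scaling of the library. Itgae was at 0.710 ± 0.215 times the Itgb7 level in WT stage 2 (SD, n = 3), at 1.28 ± 0.182 in WT stage 3 and at 0.0959 ± 0.0305 in Med23-deficient stage 2. Folds of ratios, here and below, were taken from the means of the log2 ratios. The Itgae to Itgb7 ratio was 7.45-fold lower in Med23-deficient than in WT stage 2 and 13.7-fold lower than in WT stage 3. Ranges did not overlap in either comparison. The two-sided exact permutation p was 0.1 for each, the smallest that 3 against 3 libraries allow. The Itga4 to Itgb7 ratio was at 0.0803 ± 0.0255 in WT stage 2, 0.0883 ± 0.00744 in WT stage 3 and 0.00637 ± 0.000496 in Med23-deficient stage 2.

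Itga1 was at 0.118 ± 0.0373 times the Itgb1 level in WT stage 2, at 0.682 ± 0.0990 in WT stage 3 and at 0.413 ± 0.162 in Med23-deficient stage 2. This ratio set Med23-deficient stage 2 above WT stage 2 in every library, 3.40-fold (exact permutation p = 0.1), although the level of Itga1 alone overlapped between these groups. The mean of Itga1 was higher and that of Itgb1 lower in Med23-deficient than in WT stage 2, neither past a threshold. The Itga6 to Itgb1 ratio was 0.211 ± 0.00237 in WT stage 2 and 0.213 ± 0.0505 in Med23-deficient stage 2, both above 0.0858 ± 0.00495 in WT stage 3. The Itgal to Itgb2 ratio was 0.557 ± 0.0452 in WT stage 2, 0.440 ± 0.0416 in WT stage 3 and 0.444 ± 0.0521 in Med23-deficient stage 2. WT stage 2 lay above both other groups without overlap, 1.27-fold above WT stage 3 and 1.26-fold above Med23-deficient stage 2 (exact permutation p = 0.1 for each).

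**Figure D3:**
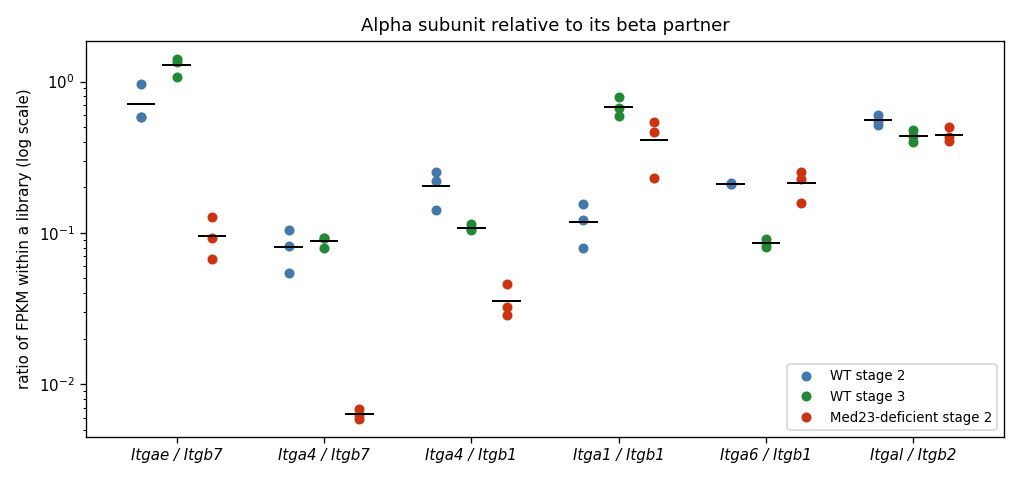
Ratio of the FPKM of an alpha subunit gene to that of its beta partner within each library (vertical axis, log scale) for 6 pairs, with points for libraries and black lines for group means. Med23-deficient stage 2 (red) is lowest for Itgae to Itgb7 and for both Itga4 pairs, WT stage 3 (green) is highest for Itga1 to Itgb1 (mean 0.682) and lowest for Itga6 to Itgb1 (mean 0.0858), and WT stage 2 (blue) is highest for Itgal to Itgb2 (mean 0.557), just above the other groups.

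The same values can be read as the make-up of the alpha chain pool. Itgal supplied 63.4% ± 4.84 (SD, n = 3) of the summed FPKM of the 5 alpha genes in WT stage 2, 43.3% ± 1.95 in WT stage 3 and 86.9% ± 3.48 in Med23-deficient stage 2. Itgae supplied 28.2% ± 6.06, 36.3% ± 2.64 and 5.81% ± 2.11 in the same order, and Itga1 1.81% ± 0.308, 15.8% ± 1.22 and 4.68% ± 2.36. The summed level itself was 153 to 181 FPKM in WT stage 2, 202 to 225 in WT stage 3 and 121 to 135 in Med23-deficient stage 2, with no overlap. Among the 3 members that pair with Itgb1, WT stage 2 held Itga6 (39.7% ± 3.21), Itga4 (38.0% ± 8.82) and Itga1 (22.2% ± 7.37), WT stage 3 was mostly Itga1 (77.7% ± 2.19), and Med23-deficient stage 2 had Itga1 (60.8% ± 15.8), Itga6 (33.6% ± 13.3) and Itga4 (5.69% ± 2.58). Of the 3 beta members, Itgb2 supplied 67.0% ± 2.01, 65.5% ± 0.395 and 73.5% ± 0.446 in the order given above, and Itgb1 9.37% ± 1.90, 15.5% ± 0.606 and 4.10% ± 0.618.

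These pools hold members alone, so they were also widened, after the values were seen, to the other integrin chains of the table. Among 11 alpha chains that can pair with Itgb1, the share of Itga1 was then 13.6% ± 3.45 in WT stage 2, 65.4% ± 1.72 in WT stage 3 and 32.5% ± 10.7 in Med23-deficient stage 2, where Itga2 supplied 25.2% ± 2.92. With Itgb3 and the other beta chains counted, 7 in all, the share of Itgb2 was 59.7% ± 2.56, 64.9% ± 0.580 and 65.4% ± 1.19 in the same order. In the wider pool the mean share of Itgb2 was still higher in Med23-deficient stage 2 than in WT stage 3, but the libraries of these groups overlapped. The mean Itgb2 share in WT stage 2 went from above to below that in WT stage 3. Itgb3 supplied 10.8% ± 1.68, 0.987% ± 0.493 and 11.1% ± 1.17 in that order. The Itgal share of 15 alpha chains was 60.3% ± 4.74, 41.6% ± 2.04 and 81.3% ± 4.17.

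Marker genes of iNKT subsets also differed between the groups. The summed level of 8 genes of NKT17 cells, the subset that makes interleukin 17, was 28.3 to 33.8 FPKM in WT stage 2, 1.09 to 2.34 in WT stage 3 and 0.10 to 1.48 in Med23-deficient stage 2. Sdc1, a marker of this subset, was at 5.94, 4.49 and 5.84 FPKM in WT stage 2, listed at 0 in each WT stage 3 library and did not exceed 0.03 in Med23-deficient stage 2, and Blk was listed at 0 in each Med23-deficient library. The 6 genes of NKT1 cells summed to 170 to 216 FPKM in WT stage 2, 554 to 604 in WT stage 3 and 157 to 226 in Med23-deficient stage 2. They include Klrb1c, the gene of the NK1.1 gate, so part of the stage difference was set by the sort. The part of subset make-up in the integrin differences was not tested. The 4 gamma-delta T cell genes summed to 232 to 255 FPKM in WT stage 2 and 219 to 239 in WT stage 3, but to 4.13 to 9.11 in Med23-deficient stage 2. Nearly all of that sum in WT cells was Tcrg-C1 and Tcrg-C2, gamma-chain constant segments, which did not exceed 5.47 and 1.48 FPKM in Med23-deficient stage 2, where Sox13 was at 4.32, 2.69 and 2.10. Trdc, the delta-chain constant gene that defines these cells, did not exceed 0.38 FPKM in any library. The part of that difference in the integrin results was not tested.

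Of 19 other integrin subunit genes, 14 were in the table. Itgb3, the beta chain of the vitronectin receptor, was at 36.2, 27.6 and 36.6 FPKM in WT stage 2, at 1.99, 2.72 and 4.88 in WT stage 3 and at 41.9, 39.6 and 46.4 in Med23-deficient stage 2. It was low in stage 3 alone, the opposite of Itga1, and in WT stage 2 its level exceeded that of Itgb1. Itgb3 fell by 3.09 between WT stage 2 and WT stage 3 (SE 0.27, limma adjusted p = 0.0122) and was higher by 3.43 in Med23-deficient stage 2 than in WT stage 3 (SE 0.26, adjusted p = 0.00596). The second of these calls held with any 1 library left out, and the first was lost without the third WT stage 2 or the second WT stage 3 library (adjusted p up to 0.0598). Of its alpha partners, Itgav stayed between 1.80 and 3.76 FPKM in all 9 libraries and Itga2b did not exceed 0.54 FPKM in any. Itga2, another collagen receptor chain, was at 1.23, 1.5 and 0.90 FPKM in WT stage 2, at 1.08, 3.25 and 2.57 in WT stage 3 and at 4.22, 4.01 and 4.92 in Med23-deficient stage 2. It was highest in the Med23-deficient libraries, passing the fold and p thresholds against WT stage 2 (log2 fold change 1.29, SE 0.23, adjusted p = 0.132). Itga5, a fibronectin receptor chain, was at 1.73, 1.58 and 3.26 FPKM in WT stage 2, compared with 0.40, 0.72 and 0.31 in Med23-deficient stage 2, where it passed the same thresholds (-1.08, SE 0.29, adjusted p = 0.282), though not without the third WT stage 2 library (-0.86).

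Of 38 genes for proteins that regulate integrins or link adhesion receptors to the cytoskeleton, 34 were in the table, and 1 passed the adjusted p in any comparison. Over all genes tested, 1.67% passed it between the WT stages, 0.213% between the stage 2 groups and 1.33% between Med23-deficient stage 2 and WT stage 3. Flna, which encodes filamin A and links beta tails to actin, was at 81.1, 75.9 and 84.6 FPKM in WT stage 2 and fell to 55.5, 57.0 and 57.9 in WT stage 3 (log2 fold change -0.49, SE 0.08, limma adjusted p = 0.0429). That call was lost with any 1 library left out (adjusted p from 0.0789 to 0.141). None of the 34 passed the fold and p thresholds in any of the 3 comparisons, where 3.60%, 2.11% and 2.86% of all genes did, and their log2 fold changes lay between -0.70 (Ilk) and 0.75 (Rasgrp2) for WT stage 3 against WT stage 2. Tln1, which encodes talin, stayed between 97.6 and 112 FPKM in all 9 libraries. At an unadjusted p of at most 0.05 there were 7 of these 34 genes between the WT stages, 7 between Med23-deficient and WT stage 2 and 10 between Med23-deficient stage 2 and WT stage 3, beside 13.2%, 9.58% and 10.2% of all genes tested.

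Of 29 genes for ligands of integrins and CD44 or for enzymes that make or cut hyaluronan, 16 were in the table. Cdh1 encodes E-cadherin, the ligand of the Itgae and Itgb7 pair, and was read in the iNKT libraries themselves. It was at 3.85, 7.17 and 2.74 FPKM in WT stage 2, at 18.6, 24.7 and 30.9 in WT stage 3 and at 0.98, 1.90 and 2.48 in Med23-deficient stage 2. All 3 groups were apart in the same order as for Itgae. Cdh1 rose by 2.25 between the WT stages (SE 0.33, limma adjusted p = 0.0412) and was lower by 13.8-fold in Med23-deficient stage 2 than in WT stage 3 (-3.22, SE 0.28, adjusted p = 0.00896). With 1 library left out, the first call held only without the second WT stage 2 library (adjusted p from 0.0371 to 0.135), and the second was lost only without the second WT stage 3 library (0.0555). Icam1, the ligand of LFA-1, was at 11.7, 13.9 and 15.9 FPKM in WT stage 3, compared with 6.66, 4.40 and 7.95 in Med23-deficient stage 2, past the fold and p thresholds with an adjusted p of 0.134 (not without the second Med23-deficient library, -0.83, or the third WT stage 3 library, -0.94), and its WT stage 2 values of 6.07, 12.5 and 6.97 overlapped both. Epithelial cells also express Cdh1. The 4 epithelial and stromal genes in the table summed to 8.51 to 9.52 FPKM in WT stage 2, 1.97 to 3.87 in WT stage 3 and 8.05 to 10.8 in Med23-deficient stage 2. Most of that sum was Pecam1, a gene of endothelium and leukocytes. Epcam was at 0.20, 0 and 0.27 FPKM in WT stage 2, at 0.21, 0.79 and 0.78 in WT stage 3 and at 0, 0.49 and 0.40 in Med23-deficient stage 2, and Krt8, another epithelial gene, was above 0 in 1 library alone, at 0.28 in WT stage 3. Psmb11, a gene of thymic epithelium, was at 0.06 FPKM in 1 Med23-deficient library, at 0.03 in 1 WT stage 3 library and at 0 in the others. The highest Epcam and Krt8 values were in the group where Cdh1 was highest, and the highest Psmb11 value was not. None of these 3 genes exceeded 0.79 FPKM in any library. The part of epithelial RNA in the Cdh1 difference was not tested.

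Of 26 other adhesion and homing receptors, 24 were in the table. Of these, 3 passed the adjusted p between the WT stages, 1 between the stage 2 groups and 4 between Med23-deficient stage 2 and WT stage 3. Over all genes tested, 1.67%, 0.213% and 1.33% passed it in the same order. Emb, which encodes embigin, a glycoprotein of the immunoglobulin superfamily, was at 17.2, 11.3 and 20.2 FPKM in WT stage 2, compared with 8.10, 10.2 and 12.6 in Med23-deficient stage 2, and in stage 3 it was listed at 0 in 2 libraries and at 0.22 in the other (limma adjusted p = 0.00651 between the WT stages). Cd200, an inhibitory ligand, was at 2.51, 1.02 and 1.70 FPKM in WT stage 2, at 1.59, 1.80 and 1.47 in Med23-deficient stage 2 and was listed at 0 in all 3 stage 3 libraries (adjusted p = 0.0497 between the WT stages). Pecam1, a homophilic adhesion molecule of endothelium and leukocytes, was at 8.31, 9.52 and 8.58 FPKM in WT stage 2, at 1.76, 2.80 and 2.42 in WT stage 3 and at 10.8, 8.81 and 7.59 in Med23-deficient stage 2. These 3 genes were low in stage 3, like Itgb3, and Emb, Cd200 and Pecam1 were all higher in Med23-deficient stage 2 than in WT stage 3 by the adjusted p (0.00517, 0.0133 and 0.0276 in limma). Cd6, a receptor for ALCAM, passed it there too, at 56.3, 56.1 and 56.3 FPKM against 36.8, 30.5 and 31.4 (adjusted p = 0.0228). With 1 library left out, the calls on Emb held in all fits of both comparisons, those on Pecam1 were lost in all (adjusted p up to 0.107), that on Cd6 held in 1 of 6 fits, and those on Cd200 held in 1 of 6 and 3 of 6.

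Thy1 was the gene of these lists that fell in Med23-deficient against WT stage 2 cells by the adjusted p, from 117, 101 and 108 FPKM to 48.9, 46.8 and 53.8 (log2 fold change -1.11, SE 0.09, limma adjusted p = 0.0301), a call lost with any 1 library left out (adjusted p from 0.0753 to 0.136). L1cam, a neural adhesion molecule also found on leukocytes, was at 1.15, 0.76 and 1.55 FPKM in WT stage 2, at 5.71, 4.13 and 4.47 in WT stage 3 and at 8.61, 6.47 and 8.73 in Med23-deficient stage 2. Its ranges did not overlap, and the difference between Med23-deficient and WT stage 2 was 2.06 (SE 0.24, adjusted p = 0.0511). Cd81, a tetraspanin that associates with integrins, was at 4.88, 2.23 and 3.13 FPKM in WT stage 2, compared with 0.72, 1.35 and 0.93 in WT stage 3, past the fold and p thresholds only (adjusted p = 0.182), and not without the first WT stage 2 library (-0.88).

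**Figure D4:**
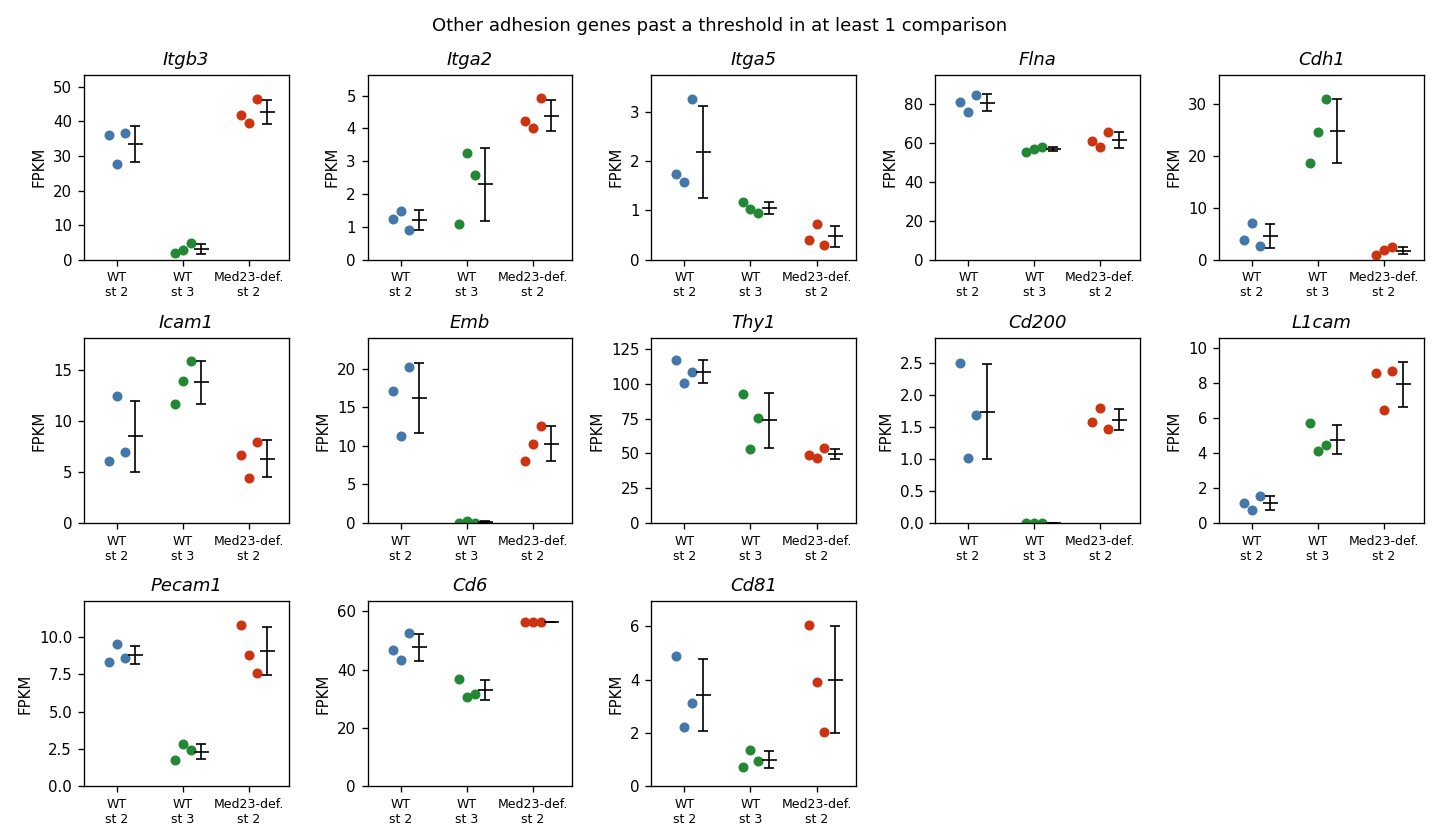
FPKM (vertical axes, linear from 0) of 13 further adhesion genes, colours and bars as in the plot of the 9 members by library. Itgb3, Emb, Cd200 and Pecam1 are lowest in WT stage 3 (green), Cdh1 is highest there (18.6 to 30.9 FPKM), and L1cam and Itga2 are highest in Med23-deficient stage 2 (red).

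The genes whose profile over the 9 libraries was nearest to each called member, by Pearson's r of log2(FPKM + 1) among 9661 genes, are given as a description, since the 9 libraries fall into 3 groups that set most of r. For Itga1 these were Crim1 (r = 0.991), Mir1932 (0.983) and Ptpn4 (0.977). For Itga4 they were Tcrg-C2 (0.979), Trgv2 (0.977) and Capg (0.973), of which the gamma-chain segments had means of 126 and 93.6 FPKM in WT stage 2 and 0.707 and 0.113 in Med23-deficient stage 2. For Itgae they were Xylt1 (0.987), Adam19 (0.976) and Tcrg-V4 (0.975). For Itgb1 they were Klra9 (0.989), Mical2 (0.988) and Sept11 (0.980), and Klra9, a gene of the Ly49 receptor family whose members share much sequence, had means of 10.6 FPKM in WT stage 2, 269 in WT stage 3 and 0.0233 in Med23-deficient stage 2.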

How the data were processed

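Thymic iNKT cells were sorted and profiled by RNA sequencing in 3 groups of 3 libraries. Per the submitters, libraries were made from total RNA with a stranded low-input kit, reads were trimmed with Trimmomatic 0.36, aligned to mm10 with HISAT2 and quantified with StringTie from reads hitting at most 2 loci, and the authors deposited the values as FPKM per gene. StringTie and HISAT2 versions and the strand setting are not given in the sources used here. The table holds no counts and its FPKM do not return whole reads, so sequencing depth is unknown and counting error could not be given. The number of genes above 0 per library ranged from 15584 to 17333 of 21883, and no pair of libraries was identical.

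The FPKM were transformed as log2(FPKM + 1), genes at 0 in all libraries of a comparison were left out, and each of the 3 comparisons was fitted on its own 6 libraries with limma 3.58.1 in R 4.3.3 (empirical Bayes with a trend, Benjamini-Hochberg adjustment over all genes tested). The fit was tested on simulated data. Ballgown, which the study used, could not be run and its linear model was imitated as an alternative. Ratios were compared by exact permutation tests in scipy 1.17.1. Named genes were all members and, from each adhesion list, genes past a threshold in any comparison with a mean FPKM of at least 1 in a group, at most 8 per list by p. One gene that this rule names is not reported here. The 3 nearest profiles were added for called members. The members and lists were chosen with earlier results of these data known. The shared replicate numbers were not treated as pairs, since not every correlation of the deviations of equally numbered libraries was over 0.1. These correlations were 0.161, 0.144 and 0.272 for the third libraries and lay between 0.00429 and 0.0845 for the first and second. Whether the third libraries share a source was not tested. Alternatives changed the pseudocount, the filter, the scaling, the model and the libraries used.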

Additional observations from a re-analysis of the deposited data

How the results depend on the processing

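Of the members' log2 fold changes under 16 alternatives, 137 of 144 kept their direction and side of the fold and p thresholds between WT stage 3 and WT stage 2, 142 of 144 between Med23-deficient and WT stage 2, and 144 of 144 between Med23-deficient stage 2 and WT stage 3. Signs turned for genes with changes near 0: between the WT stages, Itga4 was at -0.0115 on the TPM scale, -0.19 in the Ballgown-style model and -0.14 without the second WT stage 2 library (range when leaving out 1 library -0.14 to 0.22), and Itgb7 at 0.0034 in the Ballgown-style model. Between Med23-deficient and WT stage 2, Itgal was at -0.0242 on the TPM scale. Counts of members past the adjusted p were less stable. Between the WT stages the 2 became 1 with no filter on low values, 1 with the replicate block, 0 in the Ballgown-style model and 1 whenever a library was left out. The fold and p count was 2 with a common upper quartile and 1 to 2 with a library left out. Between Med23-deficient and WT stage 2 the 0 became 1 with a pseudocount of 0.1, 2 with 0.01, 2 with a mean FPKM of at least 1, 1 with a common upper quartile, 1 without a trend and 3 with all 9 libraries in 1 fit. Between Med23-deficient stage 2 and WT stage 3 the 4 became 3 with no filter on low values (without Itga1), 2 with the replicate block, 0 in the Ballgown-style model and 2 to 4 with a library left out, where Itgae and Itgb1 passed in all 6 fits, Itga4 in 3 and Itga1 in 2. The cause of these shifts was not tested. The TPM scale moved the median change of the genes that average 1 FPKM or more from -0.05 to -0.14 between the WT stages and to -0.16 between the stage 2 groups. Unknown depth limits the genes near 0, Itga4 in Med23-deficient cells among them.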
